A study of Mus musculus with 6 samples.

Results

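Interferon-induced effector genes are the genes that cells switch on after sensing interferon and whose products act directly on viruses, intracellular bacteria and parasites. They were picked by symbol from an mRNA table of mouse thymus, the organ in which T cells mature: every gene whose name began with Ifit, Ifi and a digit, Oas, Gbp, Irgm, Isg, Iigp, Igtp or Tgtp, together with Mx1, Mx2, Rsad2, Usp18, Bst2, Xaf1, Parp9 and Parp14. The rule found 71 of 21954 genes. Of these, 18 encode immunity GTPases, 32 belong to antiviral families and 21 to neither, and 62 averaged at least 0.5 FPKM over the 6 libraries and were tested (17 GTPase genes, 26 antiviral genes and 19 others). The rule reads names and not function: it also took Ifitm1, Ifitm2, Ifitm3 and their relatives, because Ifitm begins with Ifit, and Isg20l2, named for its likeness to Isg20.

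The 3 irradiated thymuses came from C57BL mice aged 5 weeks that had received 6 Gy of X-rays and were killed 24 h later, and the 3 control thymuses from C57BL mice of the same age that were not irradiated. Polyadenylated RNA of the whole organ was sequenced, with no transgene, deletion or cell sort in the labels. The unit is FPKM, a fragment count divided by the length of the transcript and the depth of the library. The labels do not tie each library to an animal, and the p-values below weigh differences against the spread among these 6 libraries, which may be partly technical.

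Interferons are secreted proteins. Type I interferon signals through IFNAR1 and IFNAR2, JAK1 and TYK2 to a transcription factor complex with STAT2 and IRF9 that binds the interferon-stimulated response element (ISRE). Interferon gamma signals through IFNGR1 and IFNGR2, JAK1 and JAK2 to the gamma-activated site (GAS). The guanylate-binding proteins (GBP) and immunity-related GTPases (IRG) are large GTPases that assemble on the vacuoles and membranes of intracellular pathogens and are classical targets of interferon gamma. The antiviral families act mainly on viral RNA and virus particles and are classical targets of type I interferon, although many genes answer to both. In the thymus, interferon is known to be made at a low level by medullary epithelium without infection.

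Sequence upstream of 7 members is shown here because they carry, or in 1 case lack, the ISRE and GAS matches counted after them. The windows are RefSeq promoters on the build GRCm38.p6, each with 250 bases before and 50 after the start of a transcript, and 51 of the 71 members were matched to at least 1 window by symbol. The 2 patterns below were searched on both strands: the ISRE core, spelled GAAANNGAAA, and the GAS, spelled TTCNNNGAA, where N is any base. The stretches are 120 bases long, written 5′ to 3′ on the strand of the gene, with the matches in capitals; capitals that begin with TTTC are ISRE cores read from the other strand.

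The GTPase genes shown are Gbp2 (chr3:142620553-142620672, plus strand), Igtp (chr11:58199446-58199565, plus strand) and Irgm1 (chr11:48871411-48871530, minus strand).
Gbp2: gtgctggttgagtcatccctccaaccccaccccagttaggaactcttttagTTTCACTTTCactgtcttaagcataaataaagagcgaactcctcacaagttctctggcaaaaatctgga
Igtp: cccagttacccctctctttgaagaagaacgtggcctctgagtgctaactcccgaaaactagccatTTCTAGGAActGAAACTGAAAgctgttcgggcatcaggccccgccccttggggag
Irgm1: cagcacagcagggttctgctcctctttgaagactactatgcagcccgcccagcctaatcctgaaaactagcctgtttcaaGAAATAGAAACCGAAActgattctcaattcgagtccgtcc

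The antiviral genes shown are Ifit3 (chr19:34583317-34583436, plus strand), Isg15 (chr4:156200809-156200928, minus strand) and Oas1a (chr5:120907516-120907635, minus strand), with Isg20l2 (chr3:87930204-87930323, plus strand) as the antiviral-class member whose values went the other way.
Ifit3: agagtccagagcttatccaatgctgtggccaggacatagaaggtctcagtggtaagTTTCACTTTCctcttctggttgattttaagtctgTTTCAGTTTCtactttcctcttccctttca
Isg15: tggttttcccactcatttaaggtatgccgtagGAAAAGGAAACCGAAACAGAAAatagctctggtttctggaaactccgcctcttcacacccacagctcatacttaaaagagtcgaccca
Oas1a: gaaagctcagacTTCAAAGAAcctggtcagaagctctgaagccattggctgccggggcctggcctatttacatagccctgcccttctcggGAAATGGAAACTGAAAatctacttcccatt
Isg20l2: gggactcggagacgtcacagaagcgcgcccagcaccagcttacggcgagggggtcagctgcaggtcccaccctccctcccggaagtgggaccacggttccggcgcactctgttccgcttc

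In Igtp a GAS at bases 45 to 37 before the start lay next to an ISRE core at bases 34 to 25. In Isg15, 3 ISRE cores overlapped each other between bases 78 and 57 before the start, and in Irgm1 and Oas1a 2 cores overlapped in the same way, with a GAS in Oas1a at bases 98 to 90. Ifit3 held 2 cores, at bases 156 to 147 and 122 to 113. Gbp2 held 1 core, at bases 59 to 50, and Isg20l2 held neither pattern in its window.

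At least 1 ISRE core lay in a window of 10 of 11 GTPase genes (90.9%), 14 of 26 antiviral genes (53.8%) and 8 of 14 other members (57.1%), against 3.99% of all 27025 genes with a window. A GAS lay in a window of 6 of 11 GTPase genes (54.5%), 6 of 26 antiviral genes (23.1%) and 2 of 14 other members (14.3%), against 9.55% of all genes. Within the GTPases, an ISRE core lay in 5 of 5 GBP genes and 5 of 6 IRG genes with a window, and a GAS in 2 of 5 and 4 of 6. The 5 GBP genes with a window all lie on chromosome 3, so these shares say nothing of the GBP genes on chromosome 5, Gbp4 and Gbp8 among them. Among IFITM genes 2 of 7 held an ISRE core, against 5 of 6 IFIT genes. A match is a string of letters and not a site known to be bound, and related genes share ancestry, so no test was made.

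**Figure D1:**
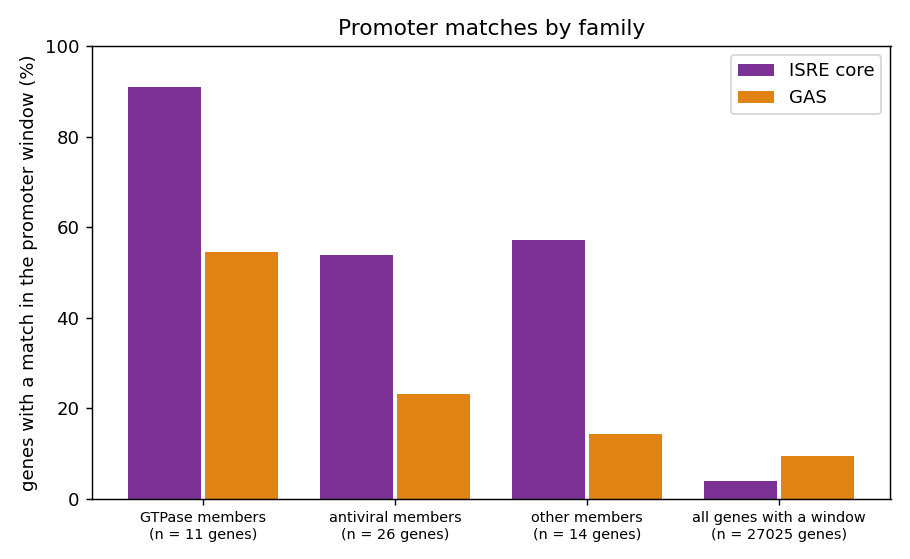
Share of genes, in percent, with at least 1 match to the ISRE core (purple) or the GAS (orange) in a RefSeq window of 300 bases around a transcript start, for GTPase, antiviral and other members and for all genes with a window. The ISRE bar reaches 90.9% for GTPase genes and 53.8% for antiviral genes, against 3.99% for all genes.

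Effector transcripts were higher in the irradiated thymus in most families, with a higher median fold change in the antiviral genes than in the GTPase genes. Of the 62 members tested, 45 rose, 3 fell and 14 did not pass at an adjusted p under 0.05 (limma on log2(FPKM + 0.1), Benjamini-Hochberg over 14001 genes). Over all genes tested, 42.4% rose and 20.9% fell. The median log2 fold change was 1.84 over the members and 0.40 over all genes tested. Summed over all 71 members, abundance was 1307, 4292 and 5554 FPKM in irradiated replicates 1, 2 and 3, against 649, 785 and 791 FPKM in control replicates 1, 2 and 3. The values of the 2 groups did not overlap in 45 members, which were higher in 42 and lower in 3, against 46.1% and 24.7% of all genes tested.

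By class, 9 of 17 GTPase genes rose (52.9%) and 2 fell, with a median log2 fold change of 1.00. Among antiviral genes 21 of 26 rose (80.8%) and 1 fell, with a median of 2.55. The shares stand beside 42.4% higher and 20.9% lower over all genes. The GTPase median minus the antiviral median was -1.55 on the log2 scale, -0.89 without irradiated replicate 3 and -0.94 with no filter on low values. Of the other members 15 of 19 rose and 0 fell, with a median of 1.79. Without the IFITM genes, a grouping added after the values were seen, the difference between the GTPase and antiviral medians was -1.54. These medians describe the families and carry no test. Without control replicate 1, 7 of 17 GTPase genes and 13 of 26 antiviral genes rose, and without control replicate 2, 8 of 17 and 13 of 26, so the shares then lay close together. Without irradiated replicate 1, 12 of 17 GTPase genes and 25 of 26 antiviral genes rose. The share of all genes that rose in these fits is not given. Whether the counts moved with the whole table was not tested. Quantile normalization or median-ratio scaling ended the calls of Gbp7, Irgm2, Ifit1bl1, Ifitm10, Isg15, Isg20, Mx2, Oas1b, Oas1c, Oas3 and Ifi27l2a, with 36 and 37 members still higher.

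**Figure D2:**
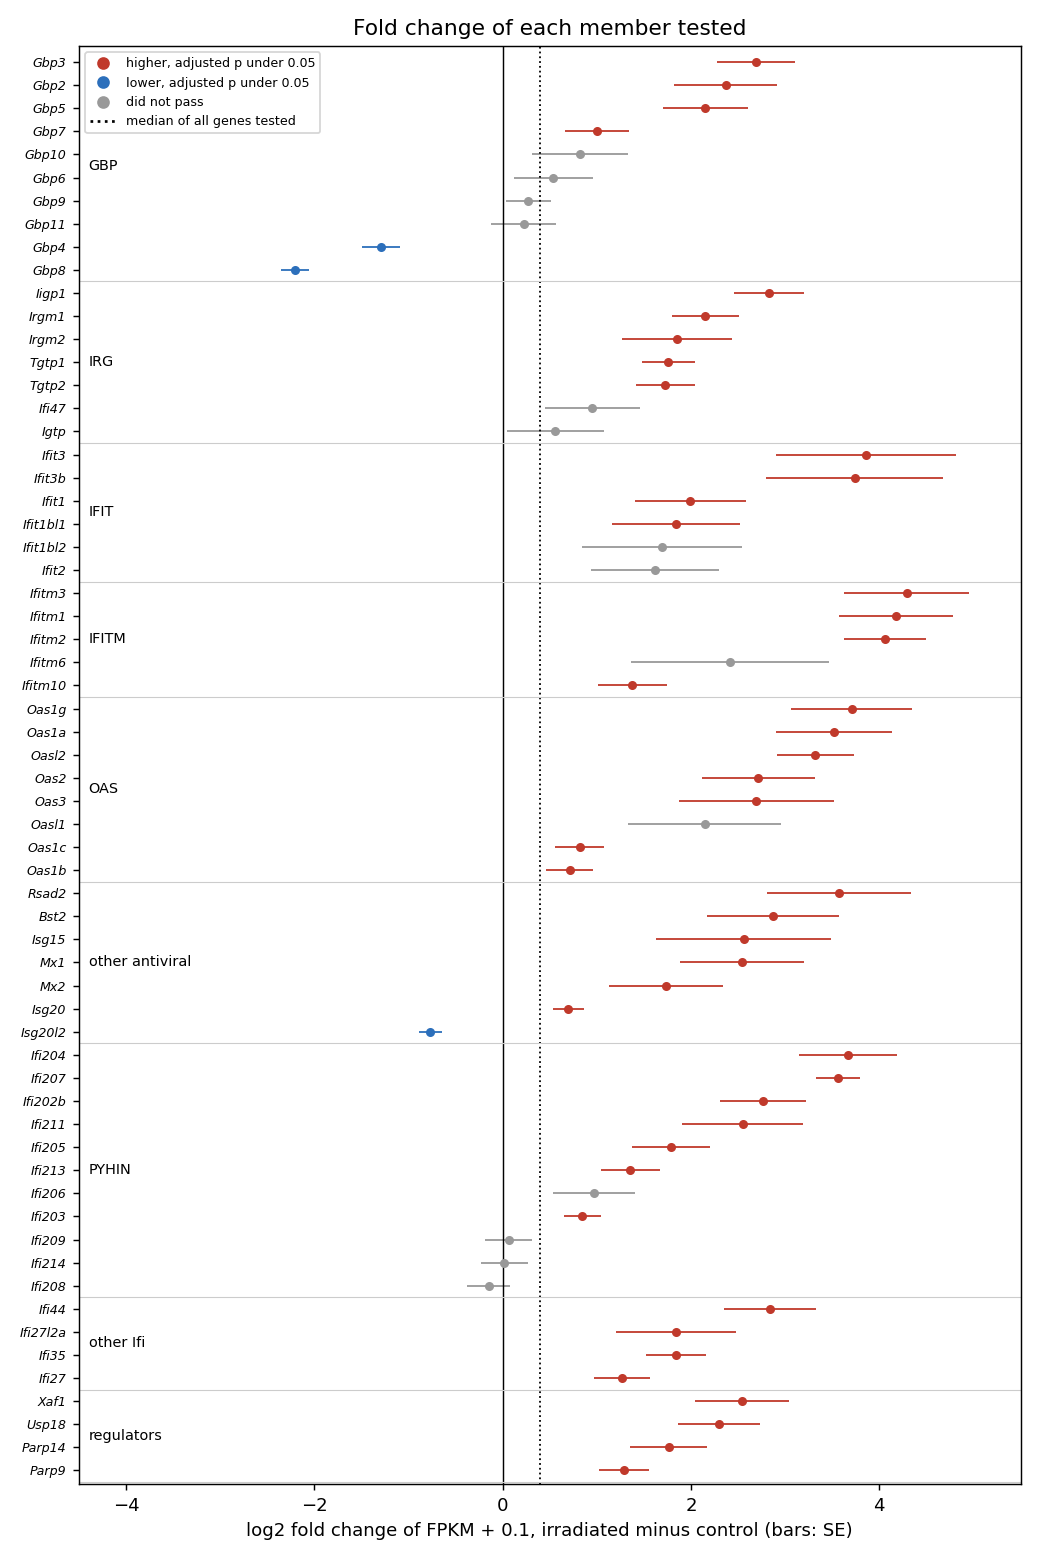
Log2 fold change of FPKM + 0.1, irradiated minus control, with its standard error, for each of the 62 members tested, grouped by family. Red points rose, blue points fell and grey points did not pass at an adjusted p under 0.05; the dotted line marks the median of all genes tested, 0.40, and most antiviral genes sit to its right while Gbp4, Gbp8 and Isg20l2 sit below 0.

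The irradiated libraries were not alike. Over all genes of the mRNA table, FPKM summed to 249245, 316531 and 305776 in irradiated replicates 1, 2 and 3. The control sums were 265813 to 274422 FPKM. Irradiated replicate 1 was the lowest of the 3 in 55 of 62 members, and irradiated replicate 3 the highest in 53. Among the 45 members that rose, the counts were 42 and 40. Among the 5933 genes of the whole table that rose, irradiated replicate 1 was the lowest in 59.5% and irradiated replicate 3 the highest in 34.1%. The median member stood at 1.72, 4.72 and 7.58 times the control mean in irradiated replicates 1, 2 and 3. For the antiviral genes this fold was 1.86, 8.70 and 13.9, and for the GTPase genes it was 1.27, 2.59 and 3.04. The gap between the classes was thus small in irradiated replicate 1 and wide in the other 2 libraries. Without irradiated replicate 1, 53 members rose.

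**Figure D3:**
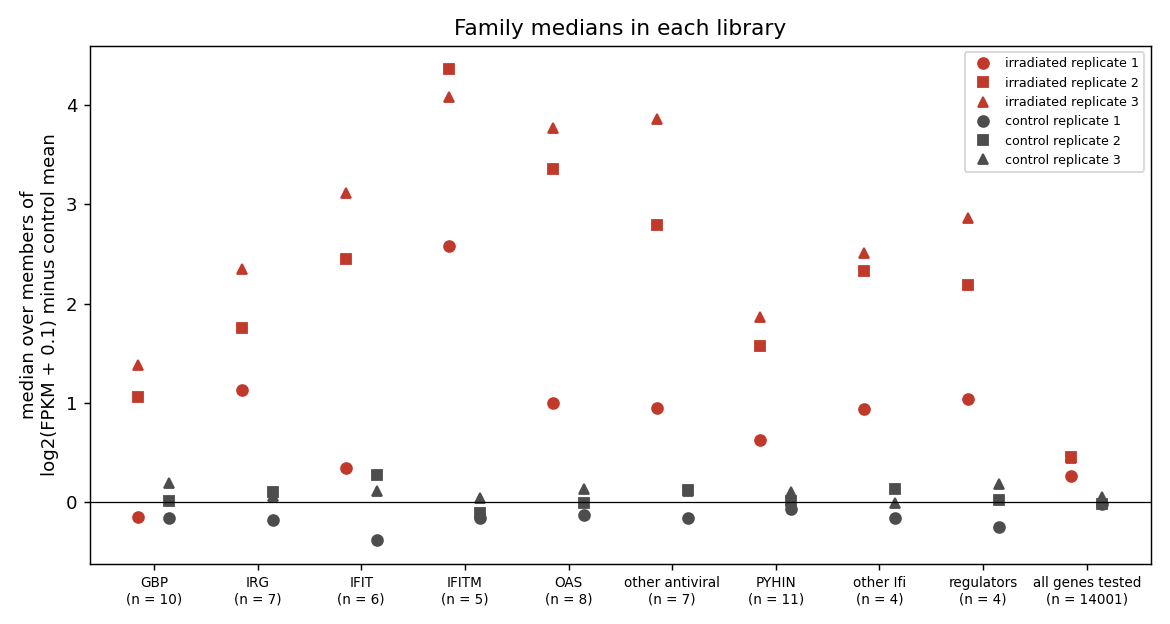
Median over the tested members of each family of log2(FPKM + 0.1) minus the control mean, for irradiated (red, left) and control (grey, right) replicates 1, 2 and 3, with all 14001 genes tested at the right end. In the GBP family irradiated replicate 1 lies at -0.15 and within the controls, while in the OAS family the irradiated replicates lie at 1.00, 3.36 and 3.78.

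The guanylate-binding proteins split by gene cluster. The mouse GBP genes lie in a cluster on chromosome 3 and another on chromosome 5. All 4 tested genes of the chromosome 3 cluster rose, and their median log2 fold change was 2.26, while of the 6 tested genes on chromosome 5 none rose, 2 fell and 4 did not pass, with a median of 0.25. The clusters were compared after their values were seen, and the difference was not tested. Over the 10 tested GBP genes together 40% rose and 20% fell, close to the 42.4% and 20.9% over all genes. The counts of the families below stand beside these same shares and rest on few genes each.

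Gbp2, on chromosome 3 and among the GBPs that coat parasite vacuoles, was at 18.5, 63.0 and 89.5 FPKM in irradiated replicates 1, 2 and 3, against 6.99, 9.58 and 11.1 FPKM in control replicates 1, 2 and 3. Every irradiated library lay above every control, and the fitted change was 5.16-fold (log2 2.37 ± 0.55 SE, adjusted p = 0.00776, limma). Gbp3 (log2 fold change 2.69), Gbp5 (2.15), whose product promotes inflammasome activation, and Gbp7 (1.00) rose as well. The call of Gbp7 was lost in each fit that left out 1 library other than irradiated replicate 1 (adjusted p 0.0689 to 0.114).

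On chromosome 5, Gbp8 went the other way, with 10.6, 8.32 and 10.4 FPKM in the irradiated libraries and 40.9, 45.7 and 49.0 FPKM in the controls. The irradiated mean was 9.76 ± 1.26 FPKM and the control mean 45.2 ± 4.10 FPKM (SD, n = 3 each), a log2 fold change of -2.20 ± 0.15 SE with an adjusted p of 6.95e-05 in limma. Gbp4 was at 13.0, 15.3 and 21.04 FPKM in the irradiated libraries and 35.5, 40.0 and 44.1 FPKM in the controls (log2 fold change -1.29 ± 0.20 SE, limma adjusted p = 0.00135). Both genes were lower in every irradiated library than in any control, unlike all other GTPase genes. Their listed spans overlap each other and that of Gbp9 on the minus strand of chromosome 5. The spans end at bases 105139540 (Gbp8), 105139586 (Gbp4) and 105139539 (Gbp9). Reads may thus have been shared, and the falls of Gbp8 and Gbp4 cannot be taken as independent.

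Gbp9 was at 17.7, 23.5 and 32.1 FPKM in the irradiated libraries and 16.9, 18.4 and 24.2 FPKM in the controls, so the groups overlapped and it did not pass. Gbp6 (log2 fold change 0.54), Gbp10 (0.82) and Gbp11 (0.22) did not pass, and the signs of Gbp9 and Gbp11 turned under another scaling of the libraries. With quantile normalization Gbp11 passed as lower. Gbp6 and Gbp10 had lower values in irradiated replicate 1 than in any control, higher values in the other 2 irradiated libraries, and passed once irradiated replicate 1 was left out. In GENCODE M21, 90.2% of the 50-base words of Gbp6 and 82.5% of those of Gbp10 also occur in other genes, chiefly Gm43302, so reads may have been split among these copies and their values are uncertain. For Gbp8 and Gbp4 the share was 21.2% and 12.8%. Gbp2b, on chromosome 3, was below the filter at 0.101 to 1.03 FPKM in the irradiated libraries and 0.0476 to 0.163 FPKM in the controls.

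**Figure D4:**
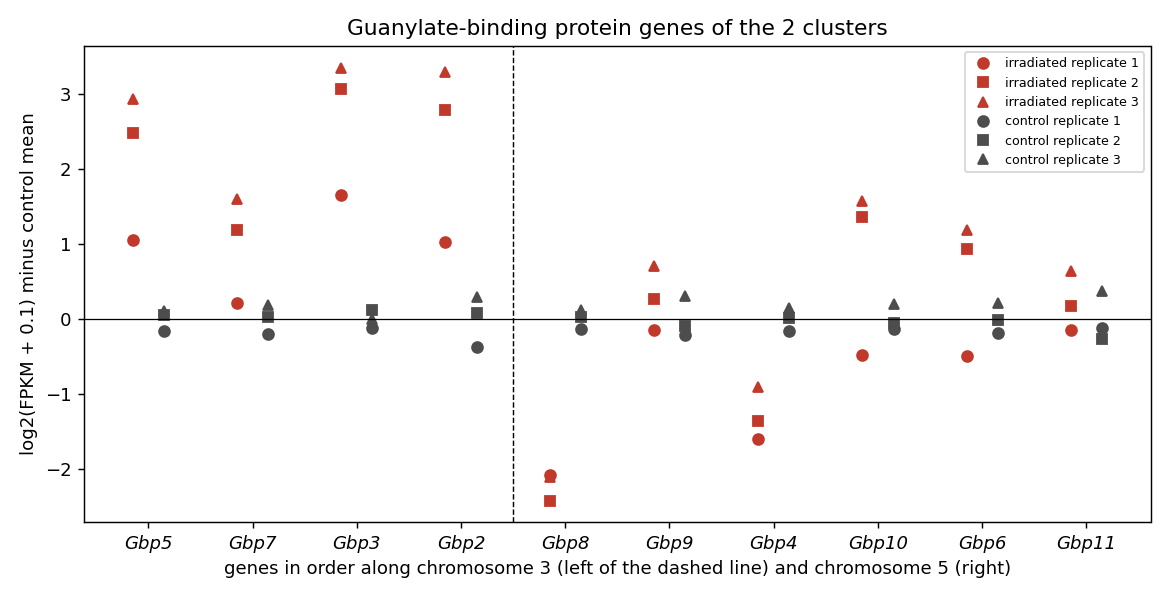
Log2(FPKM + 0.1) minus the control mean of the 10 tested GBP genes in irradiated (red, left) and control (grey, right) replicates 1, 2 and 3, in order along chromosome 3 and chromosome 5. The 4 genes left of the dashed line lie above the controls in all irradiated libraries, whereas Gbp8 and Gbp4 lie below them and the other 4 genes of chromosome 5 straddle them.

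Among the IRG genes 5 of 7 rose, 0 fell and 2 did not pass, with a median log2 fold change of 1.76. Iigp1, which encodes an effector that disrupts the vacuoles of Toxoplasma, was at 32.7, 63.9 and 99.4 FPKM in irradiated replicates 1, 2 and 3, against 8.13, 9.24 and 7.55 FPKM in control replicates 1, 2 and 3 (7.08-fold, log2 2.82 ± 0.37 SE, limma adjusted p = 0.000684). Irgm1, a regulatory IRG that keeps effector GTPases off the cell's own membranes, was at 26.6, 47.8 and 78.8 FPKM in the irradiated libraries and 9.66, 11.1 and 10.4 FPKM in the controls (4.45-fold, limma adjusted p = 0.00188). For both genes the groups were clearly apart, and even irradiated replicate 1 stood above every control.

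Tgtp1, an effector IRG, was at 25.4, 37.98 and 57.5 FPKM in the irradiated libraries and 10.1, 11.8 and 11.7 FPKM in the controls (3.38-fold, limma adjusted p = 0.00161). Its neighbour Tgtp2 gave almost the same log2 fold change, 1.73 against 1.76. The pair cannot be taken as independent, since 91.4% of the 50-base words of Tgtp1 occur in other genes, chiefly Tgtp2. Igtp, also known as Irgm3, was the exception among regulatory IRGs: it was at 15.8, 48.1 and 73.0 FPKM in the irradiated libraries and 22.5, 25.8 and 29.7 FPKM in the controls, and did not pass (log2 fold change 0.56 ± 0.51 SE, limma adjusted p = 0.365). Irradiated replicate 1 was below all controls and the other 2 irradiated libraries above them, and without irradiated replicate 1 Igtp rose (log2 fold change 1.20). Irgm2 rose (1.85), a call lost in each fit that left out 1 library other than irradiated replicate 1, and Ifi47 did not pass (0.95).

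**Figure D5:**
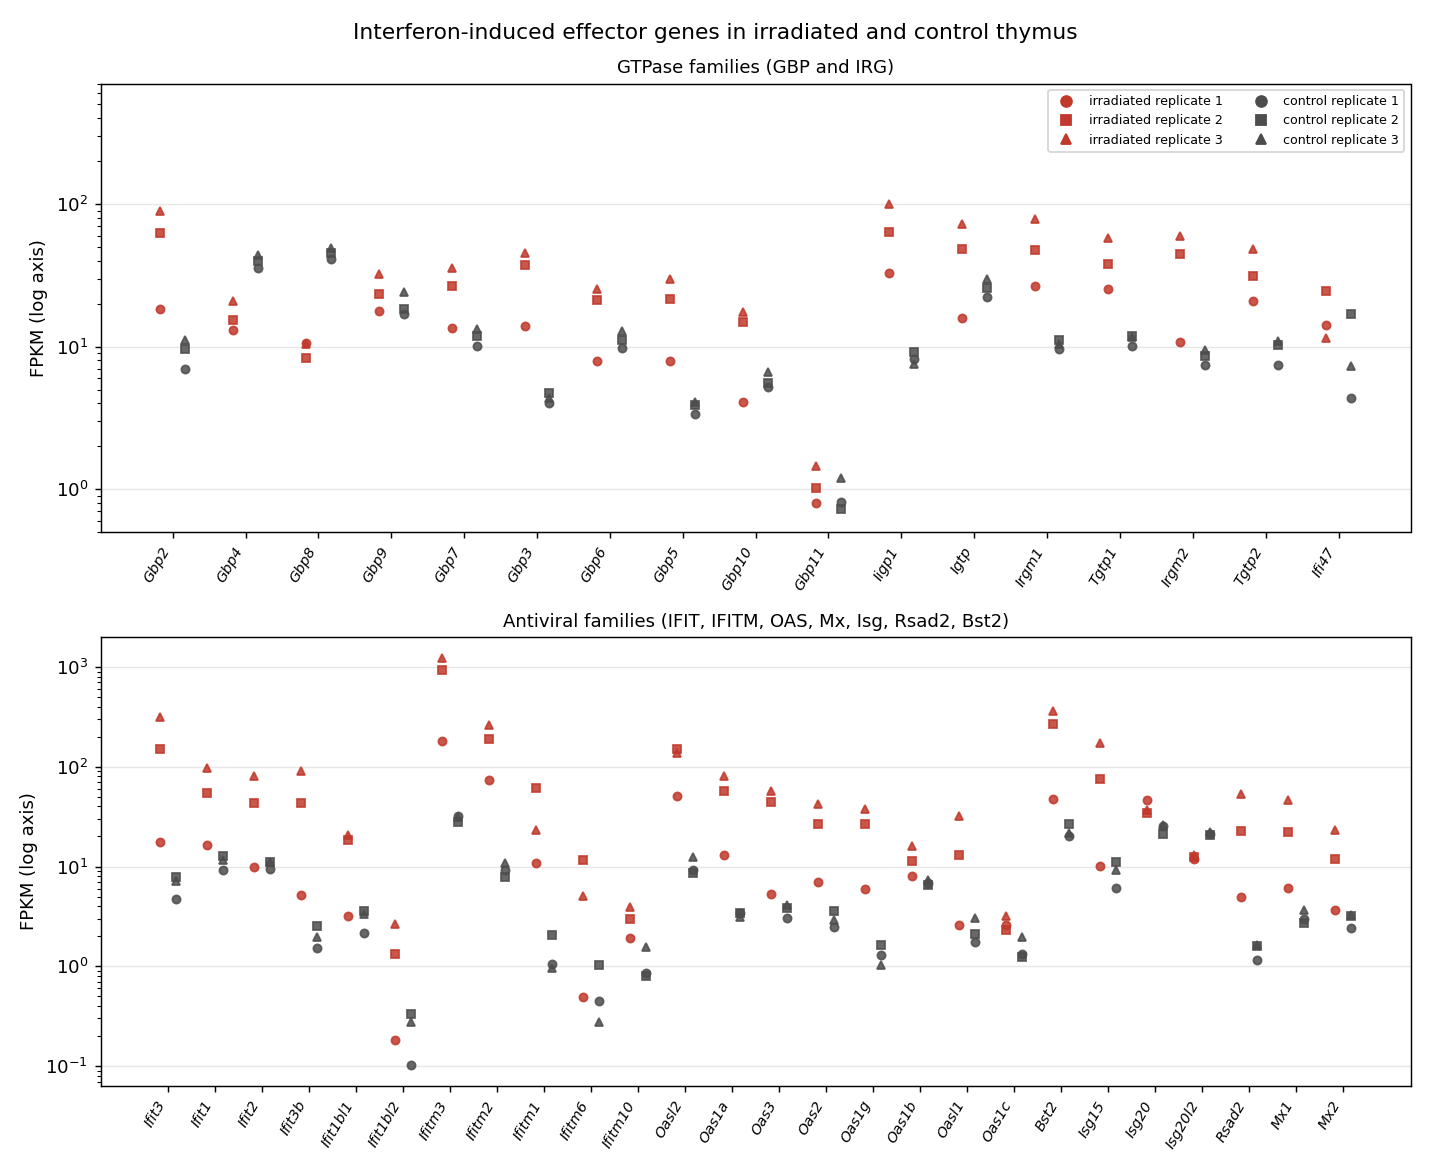
FPKM on a log axis of each tested GTPase gene (upper panel) and antiviral gene (lower panel), with irradiated replicates in red on the left of each gene and controls in grey on the right; circles, squares and triangles are replicates 1, 2 and 3. Ifitm3 reaches 1238 FPKM in irradiated replicate 3, and for most antiviral genes the red circle of irradiated replicate 1 lies nearest to the grey controls.

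The IFIT genes encode proteins that bind viral RNA lacking host cap marks, and 4 of 6 rose, 0 fell and 2 did not pass. Ifit3 was at 17.7, 150.4 and 318 FPKM in irradiated replicates 1, 2 and 3, against 4.75, 7.88 and 7.17 FPKM in control replicates 1, 2 and 3 (14.5-fold, log2 3.86 ± 0.95 SE, limma adjusted p = 0.0104). All irradiated libraries exceeded the controls, but irradiated replicate 3 was far above irradiated replicate 1. Ifit3b followed it with a log2 fold change of 3.74, and 51.2% of the 50-base words of Ifit3 also occur in other genes, chiefly Ifit3b. In Ifit3b itself the values were 5.24, 43.2 and 90.6 FPKM in the irradiated libraries and 1.52, 2.52 and 1.98 FPKM in the controls.

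Ifit1 was at 16.4, 54.1 and 98.0 FPKM in the irradiated libraries and 9.16, 12.6 and 11.7 FPKM in the controls (3.98-fold, limma adjusted p = 0.0209). Without irradiated replicate 2, or without any 1 of the controls, the adjusted p of Ifit1 was between 0.0507 and 0.0714. Ifit2 was at 9.96, 43.5 and 80.3 FPKM in the irradiated libraries and 9.49, 11.1 and 11.2 FPKM in the controls, did not pass (limma adjusted p = 0.0711), and rose without irradiated replicate 1. Irradiated replicate 1 lay among the controls for Ifit2 and above them for Ifit1 and Ifit3. Ifit1bl1 rose (log2 fold change 1.84), a call lost in each fit without 1 library other than irradiated replicate 1, and Ifit1bl2, which reached the filter only through the irradiated libraries, did not pass (1.69).

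The IFITM genes, which encode membrane proteins that block fusion of virus and cell membranes, had the highest family median, 4.06, with 4 of 5 tested genes higher. Ifitm3 was the most abundant member, at 183, 943 and 1238 FPKM in the irradiated libraries and 31.9, 28.2 and 31.2 FPKM in the controls (19.6-fold, log2 4.29 ± 0.66 SE, limma adjusted p = 0.00137). Ifitm2 was at 74.0, 191 and 263 FPKM in the irradiated libraries and 9.17, 7.90 and 10.8 FPKM in the controls (16.7-fold, limma adjusted p = 0.00031), and 48.5% of its 50-base words occur in other genes. In both, the irradiated values were above the controls without overlap.

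Ifitm1 was at 10.9, 61.1 and 23.4 FPKM in the irradiated libraries and 1.06, 2.05 and 0.961 FPKM in the controls (18.1-fold, limma adjusted p = 0.00103). Ifitm6 was at 0.489, 11.6 and 5.06 FPKM in the irradiated libraries and 0.452, 1.02 and 0.275 FPKM in the controls, and did not pass (limma adjusted p = 0.0798). Unlike most members, both were highest in irradiated replicate 2. So was the sum of 8 neutrophil markers. It was 54.1, 416 and 201 FPKM in irradiated replicates 1, 2 and 3 and 47.2, 116 and 86.0 FPKM in the controls. Much of it came from S100a8 and S100a9 (169 and 144 FPKM in irradiated replicate 2), which did not pass. Of the 8 markers 4 rose, beside 42.4% of all genes. The marker sums of fibroblasts, endothelium, B cells and plasmacytoid dendritic cells were also highest in irradiated replicate 2. So were 44.3% of the 5933 genes that rose. The part of any of these cells in the values of Ifitm1 and Ifitm6 was not tested. Ifitm10, which is not known as interferon-induced, rose (log2 fold change 1.38; adjusted p 0.0533 and 0.0553 in limma without control replicate 1 and without control replicate 2).

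The OAS family includes enzymes that sense double-stranded RNA and make the oligoadenylates that switch on RNase L, but not every member need be active. Of its 8 tested genes, 7 rose, 0 fell and 1 did not pass. Oasl2 was at 50.9, 151 and 136 FPKM in the irradiated libraries and 9.33, 8.70 and 12.5 FPKM in the controls (10.0-fold, log2 3.32 ± 0.41 SE, limma adjusted p = 0.000536). Oas1a was at 12.9, 56.9 and 80.2 FPKM in the irradiated libraries and 3.42, 3.44 and 3.09 FPKM in the controls (11.4-fold, limma adjusted p = 0.00232). Both were higher in every irradiated library than in any control.

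Oas3 was at 5.34, 44.6 and 56.9 FPKM in the irradiated libraries and 3.02, 3.80 and 4.11 FPKM in the controls (6.46-fold, limma adjusted p = 0.0241), and its call was lost in each fit without 1 library other than irradiated replicate 1. Oas2 was at 7.07, 26.6 and 41.9 FPKM in the irradiated libraries and 2.46, 3.58 and 2.92 FPKM in the controls (6.56-fold, limma adjusted p = 0.00632). The groups were apart in both genes, more narrowly in irradiated replicate 1. Oas1g rose (log2 fold change 3.71), and 54.7% of its 50-base words occur in other genes, chiefly Oas1a. Oas1b (0.71) and Oas1c (0.82) rose less, beside a median of 0.40 over all genes, and Oasl1 did not pass (2.15, limma adjusted p = 0.0513). The calls of Oas1b and Oas1c were lost with several single libraries left out (limma adjusted p 0.0813 to 0.110), and with either other scaling of the libraries, with Oas1c at -0.43 under quantile normalization.

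Of the other antiviral genes 6 of 7 rose and 1 fell. Bst2, which encodes tetherin, the protein that holds budding virus on the cell, was at 47.4, 269.7 and 359 FPKM in the irradiated libraries and 20.2, 26.4 and 21.8 FPKM in the controls (7.31-fold, log2 2.87 ± 0.70 SE, limma adjusted p = 0.00971). Isg15, which encodes a ubiquitin-like modifier, was at 10.2, 75.4 and 173 FPKM in the irradiated libraries and 6.14, 11.2 and 9.28 FPKM in the controls (5.89-fold, limma adjusted p = 0.0453). Irradiated replicate 1 lay within the controls for Isg15 but not for Bst2. The call of Isg15 was lost in each fit that left out 1 library other than irradiated replicate 1 (adjusted p 0.0847 to 0.130).

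Isg20, an exonuclease gene, was at 46.8, 34.6 and 37.3 FPKM in the irradiated libraries and 25.5, 21.2 and 26.1 FPKM in the controls (1.62-fold, limma adjusted p = 0.00841). With median-ratio scaling the log2 fold change of Isg20 was 0.31 and its call was lost. Isg20l2, a relative that acts in ribosomal RNA processing, was at 11.8, 12.6 and 13.0 FPKM in the irradiated libraries and 21.2, 20.5 and 22.3 FPKM in the controls (log2 fold change -0.77 ± 0.12 SE, limma adjusted p = 0.00139). Isg20 did not share the pattern of a low irradiated replicate 1 and a high irradiated replicate 3, and was highest in irradiated replicate 1. Isg20l2 kept that order, but its 3 irradiated values were close together. Rsad2, which encodes viperin (log2 fold change 3.57), and the dynamin-like GTPase genes Mx1 (2.54) and Mx2 (1.74) rose, the last with its call lost in each fit without 1 library other than irradiated replicate 1. Mx1 and Mx2, like Oas1b and Gbp11, are typed as polymorphic pseudogenes in the deposited annotation, so their transcripts may not give a working protein.

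The PYHIN genes, a cluster on chromosome 1 that encodes sensors and binders of nucleic acid, were mixed: 7 of 11 rose, 0 fell and 4 did not pass, with a median log2 fold change of 1.35. Ifi204 was at 18.7, 55.9 and 86.9 FPKM in irradiated replicates 1, 2 and 3, against 2.79, 3.67 and 3.98 FPKM in control replicates 1, 2 and 3 (12.7-fold, log2 3.67 ± 0.52 SE, limma adjusted p = 0.000939). Ifi203 was at 32.9, 44.0 and 52.3 FPKM in the irradiated libraries and 24.6, 20.9 and 25.2 FPKM in the controls (1.80-fold, limma adjusted p = 0.00749). Both were clear of the controls in every irradiated library.

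Ifi211 was at 8.63, 34.1 and 61.8 FPKM in the irradiated libraries and 4.45, 4.71 and 4.11 FPKM in the controls (5.85-fold, limma adjusted p = 0.011), with 72.8% of its 50-base words in other genes, chiefly Ifi205. Ifi209 was at 15.2, 21.8 and 31.0 FPKM in the irradiated libraries and 19.7, 20.9 and 21.9 FPKM in the controls, so the groups overlapped and it did not pass. Ifi207 (log2 fold change 3.56), Ifi202b (2.76), Ifi205 (1.79) and Ifi213 (1.35) rose. Ifi206 (0.97), Ifi214 (0.02) and Ifi208 (-0.15) did not pass, and the sign of Ifi209 and Ifi214 turned under other scalings. With quantile normalization Ifi214 and Ifi208 passed as lower.

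All 4 tested genes of the remaining Ifi group rose, and so did all 4 regulators. Ifi27l2a, which encodes a small hydrophobic protein, was at 129, 721 and 612 FPKM in the irradiated libraries and 82.8, 136 and 109.7 FPKM in the controls (3.58-fold, limma adjusted p = 0.0378). Irradiated replicate 1 lay within the controls, and the call was lost in each fit without 1 library other than irradiated replicate 1. Ifi27 was at 83.4, 186 and 109 FPKM in the irradiated libraries and 41.1, 54.6 and 54.0 FPKM in the controls (2.41-fold, limma adjusted p = 0.0087), with no overlap. Ifi35 was at 33.2, 56.1 and 86.1 FPKM in the irradiated libraries and 14.5, 16.4 and 14.6 FPKM in the controls (3.57-fold, limma adjusted p = 0.00229). Ifi44, the last of the 4, was at 10.0, 31.5 and 41.2 FPKM in the irradiated libraries and 3.57, 3.51 and 2.64 FPKM in the controls (7.15-fold, limma adjusted p = 0.00225), again with every irradiated library above the controls.

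Usp18, the protease that removes ISG15 and damps type I interferon signalling at its receptor, was at 30.8, 70.0 and 111 FPKM in the irradiated libraries and 10.4, 12.2 and 15.4 FPKM in the controls (4.92-fold, limma adjusted p = 0.00329). Parp14, an ADP-ribosyltransferase gene, was at 23.9, 52.2 and 83.9 FPKM in the irradiated libraries and 13.5, 14.0 and 14.0 FPKM in the controls (3.39-fold, limma adjusted p = 0.00807). The groups were apart in both. Parp9, which acts with the ubiquitin ligase DTX3L, was at 26.7, 39.4 and 54.2 FPKM in the irradiated libraries and 13.3, 15.9 and 18.2 FPKM in the controls (2.45-fold, limma adjusted p = 0.00461). Xaf1, which encodes an antagonist of the apoptosis inhibitor XIAP, was at 13.8, 39.1 and 60.1 FPKM in the irradiated libraries and 4.46, 5.88 and 5.99 FPKM in the controls (5.82-fold, limma adjusted p = 0.00369). These 2 genes were likewise higher in every irradiated library.

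Besides Gbp2b, 8 members were below the filter and were not tested. Ifi27l2b ranged over 0.0381 to 1.84 FPKM in the irradiated libraries and 0 to 0.0453 FPKM in the controls, and Ifitm5 over 0.458 to 0.596 FPKM in the irradiated libraries and 0 to 0.125 FPKM in the controls. Oas1f lay at 0.431 to 0.736 FPKM in the irradiated libraries and 0.0725 to 0.421 FPKM in the controls. The untested Oas1d, Oas1e and Oas1h were at most 0.522 FPKM in any library, Ifitm7 at most 0.132 FPKM, and Ifi44l was listed at 0 in all 6.

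The genes that make, sense and relay interferon were listed apart from the effectors. Of 21 interferon genes found, 0 reached the filter and 12 were listed at 0 in all libraries. The highest single value was that of Ifng, interferon gamma, with 0.168, 0.394 and 0.350 FPKM in the irradiated libraries and 0.0742, 0.178 and 0.131 FPKM in the controls. One fragment in a transcript of 1 kb was worth 0.0391 to 0.0456 FPKM, so these values rest on few fragments. The genes were below the filter and were not tested here.

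Of 11 receptor and JAK-STAT genes reported, 7 rose, 1 fell and 3 did not pass, with a median log2 fold change of 1.04, beside 42.4% higher, 20.9% lower and a median of 0.40 over all genes. Jak1, Ifngr1 and Jak2 were the most abundant of these. Jak1 (-0.07) and Jak2 (0.26) did not pass, and Ifngr1, the ligand-binding chain of the receptor for interferon gamma, fell to 47.4, 40.1 and 31.1 FPKM in the irradiated libraries, against 85.2, 86.5 and 92.7 FPKM in the controls (-1.17, limma adjusted p = 0.00132). Ifngr2 rose (1.04), and so did Ifnar2 (1.22), Stat2 (1.76) and Irf9 (1.15). The 2 chains of the interferon gamma receptor thus moved in opposite directions.

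Among 16 sensor and IRF genes tested, 12 rose and 0 fell, with a median of 1.78. Irf7, the factor that amplifies type I interferon, was at 19.4, 109.5 and 125 FPKM in the irradiated libraries and 6.46, 7.41 and 9.99 FPKM in the controls (log2 fold change 3.02, limma adjusted p = 0.00651). The other best-expressed genes of that list were Irf1 (1.00) and Ddx58 (1.49), which encodes RIG-I, and both rose. Of 10 genes that brake the pathway, 3 rose and 3 fell, beside 42.4% higher and 20.9% lower over all genes. Ptpn1 (0.97), Socs3 (1.43) and Pias3 (1.81) rose, whereas Socs1, the feedback inhibitor of interferon gamma signalling, was at 9.43, 6.15 and 10.8 FPKM in the irradiated libraries and 25.6, 31.4 and 31.6 FPKM in the controls (-1.77, limma adjusted p = 0.000618). Trim24 (-1.08) and Pias2 (-0.40) also fell, and Ptpn6, among the most abundant of the list, did not pass (0.21).

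A list of 43 further interferon-responsive genes gave 24 that rose and 0 that fell, with a median of 1.25, again beside 42.4% and 20.9% over all genes. The most abundant were B2m (log2 fold change 1.83), the light chain of MHC class I, Lgals3bp (2.92) and Shisa5 (1.28), all of which rose. The chemokine gene Cxcl10 was at 5.31, 37.7 and 149.6 FPKM in the irradiated libraries and 4.23, 4.43 and 6.05 FPKM in the controls and did not pass (2.66, limma adjusted p = 0.0599), with irradiated replicate 1 within the controls.

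The cell makeup of the organ differed between the groups at the same time. In bulk samples, fewer cells of a type and less RNA per cell cannot be told apart. All 10 markers of double-positive thymocytes fell, and their sum was 125, 65.0 and 91.1 FPKM in irradiated replicates 1, 2 and 3 and 2103, 2269 and 2426 FPKM in the controls. Cd4 and Cd8a made up much of the irradiated sums, and Rag2, which is needed to rearrange T cell receptor genes, was at 0.556, 0.0114 and 0.303 FPKM in the irradiated libraries and 46.0, 51.3 and 48.7 FPKM in the controls. All 12 macrophage markers rose (881, 1057 and 1189.9 FPKM in the irradiated libraries and 128, 167 and 161 FPKM in the controls), and all 11 of medullary epithelium rose (354, 669 and 932 FPKM in the irradiated libraries and 67.3, 64.3 and 79.0 FPKM in the controls). The markers that rose also numbered 9 of 9 for fibroblasts, whose sum was 719.9 to 783 FPKM in the irradiated libraries and 77.9 to 101 FPKM in the controls, and 8 of 9 for endothelium, whose sum was 52.4 to 135 FPKM in the irradiated libraries and 33.3 to 42.3 FPKM in the controls. They numbered 6 of 9 for cortical epithelium, 5 of 10 for conventional dendritic cells, 3 of 8 for mature T cells, 2 of 8 for plasmacytoid dendritic cells and 1 of 7 for B cells. Of the same lists 2 mature T cell markers, 2 plasmacytoid dendritic cell markers (Ccr9 and Ly6d, which thymocytes also express) and 1 B cell marker fell, and of 4 NK cell markers tested 0 rose and 1 fell. Over all genes 42.4% rose and 20.9% fell, so the counts for cortical epithelium, dendritic, mature T, B and NK cells are not far from that share or rest on few markers. No marker in these lists was at 0 in all libraries. The cortical epithelium markers summed to 643, 393 and 220 FPKM in irradiated replicates 1, 2 and 3. In control replicates 1, 2 and 3 they summed to 548, 318 and 346 FPKM, so the groups overlapped. Beside the fall of Gbp4 and Gbp8 stands the fall of the thymocyte markers. Beside the rise of 45 of the 62 members tested stands the rise of the macrophage, medullary epithelium and fibroblast markers and of most endothelium markers. The part of these cells in the results was not tested. Some macrophage markers were low in irradiated replicate 1 and high in irradiated replicate 3, as most members were: Cd68 was at 35.6, 116 and 169 FPKM in the irradiated libraries and 6.27, 7.26 and 7.51 FPKM in the controls. Others were level, such as C1qa with 257, 267 and 265 FPKM in the irradiated libraries and 32.2, 39.0 and 38.8 FPKM in the controls. Mertk, Mrc1 and Timd4 were instead highest in irradiated replicate 1, and Cd163 was lowest in irradiated replicate 3. Mertk was at 26.9, 16.6 and 17.2 FPKM in the irradiated libraries and 2.35, 2.53 and 2.19 FPKM in the controls.

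A second deposited table lists transcripts classed as non-coding, most of them retained introns or processed transcripts of the same genes. It held 72 transcripts of 37 members, of which 53 averaged at least 0.5 FPKM. In 28 of these the irradiated values were all above the controls and in 5 all below, against 12.0% and 39.7% of the 19247 transcripts of that table at the same level. Of the 28, 11 reached that level only through the irradiated libraries, which favours a difference without fixing it. A further 5 that reached it only in that way overlapped the controls. The other 17 of the 28 averaged 0.5 FPKM or more in both groups, as did the 5 lower ones. The 5 lower ones belonged to Gbp4, Gbp8 and Gbp9, whose spans overlap, so they cannot be taken as independent. A retained-intron transcript of Gbp8 was at 4.57, 4.81 and 3.05 FPKM in the irradiated libraries and 18.2, 22.5 and 23.3 FPKM in the controls, like the mRNA value of that gene. A retained-intron transcript of Oas2 was at 3.84, 13.8 and 18.9 FPKM in the irradiated libraries and 0.967, 1.40 and 1.12 FPKM in the controls. The non-coding lines may share reads with the mRNA of their gene, so the 2 tables are not independent.

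In the authors' deposited table of their own test, 43 of the 62 members tested here were higher and 3 lower at an adjusted p under 0.05. The shares over the 14001 genes tested here were 35.0% and 18.5%. The authors' deposited table had the same 3 members lower: Gbp4 (log2 fold change -1.51), Gbp8 and Isg20l2. Of the members that rose here, Gbp7, Ifi203, Ifitm10, Isg20, Oas1b and Oas1c did not pass in the authors' deposited table, where Ifitm10 had a log2 fold change of 0.52 and Ifi203 an adjusted p of 0.0768. Of the members tested here, Ifit2, Ifit1bl2, Ifitm6 and Oasl1 passed there as higher and not here. Ifi27l2b (log2 fold change 4.98), Oas1d (2.38) and Ifitm5 (2.19), below the filter here, also passed there as higher. Depth, estimated from the value of 1 fragment, was about 24400000 to 25600000 fragments in the irradiated libraries and 21900000 to 23200000 in the controls. The ranges were close, but every irradiated library was deeper than every control.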

How the data were processed

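RNA from 6 whole thymuses, 3 irradiated and 3 control, was grouped by the labels, and all libraries were used. The authors deposited 1 FPKM value per library in an mRNA table and a table of non-coding transcripts, with their own log2 fold change, p-value and adjusted p-value, for which the submitters' processing notes name DESeq2 1.10.1. The sources used here give no aligner, counting tool, strand setting or build. The mRNA table repeats a gene's values on each of its 59179 lines, so 1 line per gene was kept. Values were tested as log2(FPKM + 0.1) for genes averaging at least 0.5 FPKM, with a group-only model and an abundance trend in limma 3.58.1 (R 4.3.3), at an adjusted p under 0.05 over 14001 genes. Fold changes on this scale understate the change of low genes. The code was tested on simulated data. Members and gene lists were chosen with earlier results of these data known. In each family the 4 members of highest mean FPKM are given library by library, other tested members by fold change, and the IFITM genes were set apart after the files were seen. Of each related list the 3 genes of highest mean FPKM and those called against the list's majority are named; further ones were chosen after their values were seen. Same-numbered libraries did not deviate together, so replicate numbers were not used as pairs. Pseudocounts, filters, scalings, left-out libraries and a replicate block were tried as alternatives. The 50-base words are overlapping stretches of M21 transcripts. From the JAK-STAT list, 1 gene is not reported here.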

Additional observations from a re-analysis of the deposited data

Results flagged for a closer look

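Ifi30, which encodes the lysosomal thiol reductase GILT and matches the naming rule, was not in the mRNA table but had 2 transcripts in the table of non-coding transcripts, both of the type processed transcript in GENCODE M21. They drew attention as a signal outside the main measurement that was above the level in the controls. The more abundant one was at 10.8, 40.2 and 49.7 FPKM in irradiated replicates 1, 2 and 3, against 0.668, 0 and 0.929 FPKM in control replicates 1, 2 and 3, with an irradiated mean of 33.6 FPKM (SD 20.3, n = 3). The other was at 4.11, 5.33 and 8.003 FPKM in the irradiated libraries and was listed at 0 in all 3 controls, with an irradiated mean of 5.81 FPKM. No test was made on these transcripts.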

How the results depend on the processing

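Over all alternatives run, 34 to 53 members rose and 3 to 6 fell, and the GTPase median stayed below the antiviral median, by -0.89 (without irradiated replicate 3) to -2.08 (without irradiated replicate 1) on the log2 scale. Leaving out 1 library at a time gave 13 to 25 antiviral and 7 to 12 GTPase genes that rose, and fewer samples enter those fits. The shares of all genes called in the alternative fits are not given, so their counts have no background beside them. With quantile normalization 36 members rose and 6 fell, and with median-ratio scaling 37 and 3. Gbp11 (limma adjusted p = 0.0198), Ifi214 (limma adjusted p = 0.0433) and Ifi208 fell only with quantile normalization. The median log2 fold change of all genes was -0.07 with quantile normalization and 0.01 with median-ratio scaling, against 0.40 as reported, and the members' median was 1.57 and 1.46, against 1.84. Quantile normalization turned the sign of Gbp11 (-1.28), Ifi209 (-0.073), Ifi214 (-0.96) and Oas1c (-0.43), and median-ratio scaling that of Gbp11 (-0.13), Gbp9 (-0.11), Ifi209 (-0.32) and Ifi214 (-0.35). In the authors' deposited table Ifi209 stood at -0.10 and Ifi214 at -0.19. With 1 library left out, Ifi209 ranged over -0.19 to 0.32 and Ifi214 over -0.17 to 0.20. The cause was not tested. No other tested member changed sign in any of these fits. With the replicate block 50 members rose and 3 fell, among them 10 GTPase and 24 antiviral genes that rose; same-numbered libraries had correlations of 0.06, -0.04 and 0.05 in their deviations from the group means. Pseudocounts of 0.01 and 1 gave 45 and 43 members that rose, no filter 42 of 70 tested and a filter of 1 FPKM in 3 libraries 45 of 61. The 3 libraries of each group limit the precision, and FPKM keep no counts, so no counting interval was made.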
